A study of Mus musculus with 16 samples.

Results

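The 10 genes described here encode components of elastic fibres: Eln, Fbn1, Emilin1, Mfap4, Mfap5, Fbln1, Fbln2, Fbln5, Efemp1 and Efemp2. They were chosen by symbol, with earlier results of these data known. Of the 16135 genes listed in all 3 deposited tables, these 10 are a small part, and each of them passed the filter on low values in every table (a table mean of at least 10 normalized counts). The tables list 18634 genes for uninjured loss of Tcf21, 17303 for infused loss and 17730 for infused gain.

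Flow cytometry isolated the cardiac fibroblasts of mice aged 8 to 12 weeks, and each library holds the RNA of 1 such sample. Tcf21 loss came from Tcf21-MerCreMer:Tcf21-fl mice, with Tcf21-MerCreMer mice as controls: 3 loss and 3 control libraries from uninjured hearts, taken 2 weeks after tamoxifen, and 2 loss and 3 control libraries after 1 week of angiotensin II/phenylephrine infusion, which provokes cardiac fibrosis. TCF21 gain came from Pdgfra-creERT:Col1a1-TCF21 mice, with Pdgfra-creERT mice as controls: 2 gain and 3 control libraries after the same infusion. All 6 groups received tamoxifen, and all carry a Rosa26 reporter that gives EGFP once Cre has removed a stop cassette, by which the cells were sorted. The cells of the loss arm are therefore those in which Tcf21-driven Cre acted and the cells of the gain arm those in which Pdgfra-driven Cre acted, so the driver and the allele cannot be told apart when the arms are compared. No label says which libraries came from separate animals, so each p-value measures only the spread between these libraries, which may be technical.

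Elastic fibres give tissue its recoil. They form when tropoelastin, the product of Eln, is deposited on a scaffold of fibrillin microfibrils and cross-linked by lysyl oxidases. Short fibulins (Fbln5, Efemp1 and Efemp2) help to bring tropoelastin and the cross-linking enzymes to the microfibril, and microfibrils also hold latent TGF-beta through its binding proteins. In the heart, elastic fibres lie in vessel walls, valves and the interstitium, and fibroblasts and smooth muscle cells make most of their components. TCF21, a transcription factor with a basic helix-loop-helix domain, marks the cardiac fibroblast lineage, and factors of its family bind E-boxes, with the letters CANNTG.

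The upstream sequences of the pair of members that rose in uninjured loss are shown, because both passed the test there. Each is the 250 bases before a RefSeq start on GRCm38.p6, from 5′ to 3′ on the gene's own strand, with any E-box in capitals. Of the 10 members, 7 had such a window (Eln, Mfap4 and Mfap5 had none), and the RefSeq start nearest to the GENCODE gene start was taken. Fbln5 lies on the minus strand of chromosome 12 and its window is chr12:101819120-101819369. Efemp2 lies on the plus strand of chromosome 19 and its window is chr19:5473696-5473945.
Fbln5: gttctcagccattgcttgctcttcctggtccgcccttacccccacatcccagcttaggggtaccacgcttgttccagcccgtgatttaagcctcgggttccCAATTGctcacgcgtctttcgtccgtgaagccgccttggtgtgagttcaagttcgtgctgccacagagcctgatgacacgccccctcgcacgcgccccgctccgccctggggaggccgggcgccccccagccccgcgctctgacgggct
Efemp2: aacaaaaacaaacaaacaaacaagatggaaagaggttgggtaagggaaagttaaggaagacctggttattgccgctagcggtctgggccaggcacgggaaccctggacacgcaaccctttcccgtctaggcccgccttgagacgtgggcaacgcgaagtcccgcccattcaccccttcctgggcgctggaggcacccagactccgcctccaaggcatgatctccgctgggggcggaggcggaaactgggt
The Fbln5 window holds 1 E-box, CAATTG, at -149 from the start, and the Efemp2 window holds 0. The window of the other RefSeq start of Fbln5 holds 0. Over both strands, which read this palindromic pattern alike, 66.2% of 32851 such windows hold a CANNTG. A match is a description of the letters and not a binding site.

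Library sums of normalized counts ran between 27814940 and 40970391. Tcf21 checked the labels: it averaged 1405 ± 271 normalized counts in uninjured loss libraries against 7805 ± 288 in controls, 222 ± 51.9 against 2042 ± 684 under infusion, and 14161 ± 932 in gain libraries against 5813 ± 585 in theirs (SD, n as above). All 8 fibroblast markers were listed in each table, at summed normalized counts of 2936190 or more in every library. Some defining markers of other cells were low: in single libraries the smooth muscle gene Myh11 reached at most 315 normalized counts, the smooth muscle gene Cnn1 at most 74.4 and the endothelial gene Cdh5 at most 21.0. Cdh5 was at 0 in all 3 uninjured loss libraries. Other genes of those marker lists were not low: uninjured controls averaged 4183 normalized counts of Abcc9, 3119 of Rgs5 and 2741 of Notch3 among the mural genes, and 15353 of Tek among the endothelial genes. In such bulk samples fewer cells of a type and less RNA per cell cannot be told apart.

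In uninjured loss 3 of 10 members passed the test (limma on log2(value + 1), Benjamini-Hochberg adjusted p below 0.05 over all genes), where 3.58% of the 15544 genes tested did: Fbln5 and Efemp2 rose and Eln fell. In infused loss 1 of 10 passed, where 0.912% of 14799 genes did: Fbln2 fell, and its level in that table is unlike that in the others, as described with that gene. In infused gain 0 of 10 passed with limma, where 4.14% of 15369 genes did, and 5 of 10 had an unadjusted p below 0.05, a cut that 20.4% of all genes passed in gain, 21.2% in uninjured loss and 16.1% in infused loss. No count model was run, because whole reads were recovered for only a part of the low values. Log2 fold changes were positive for 5 of 10 members in uninjured loss, 2 of 10 in infused loss and 4 of 10 in gain. The members' median log2 fold change was 0.030 in uninjured loss, -0.22 in infused loss and -0.12 in gain, beside -0.012, 0.00017 and 0.0066 over all genes tested.

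**Figure D1:**
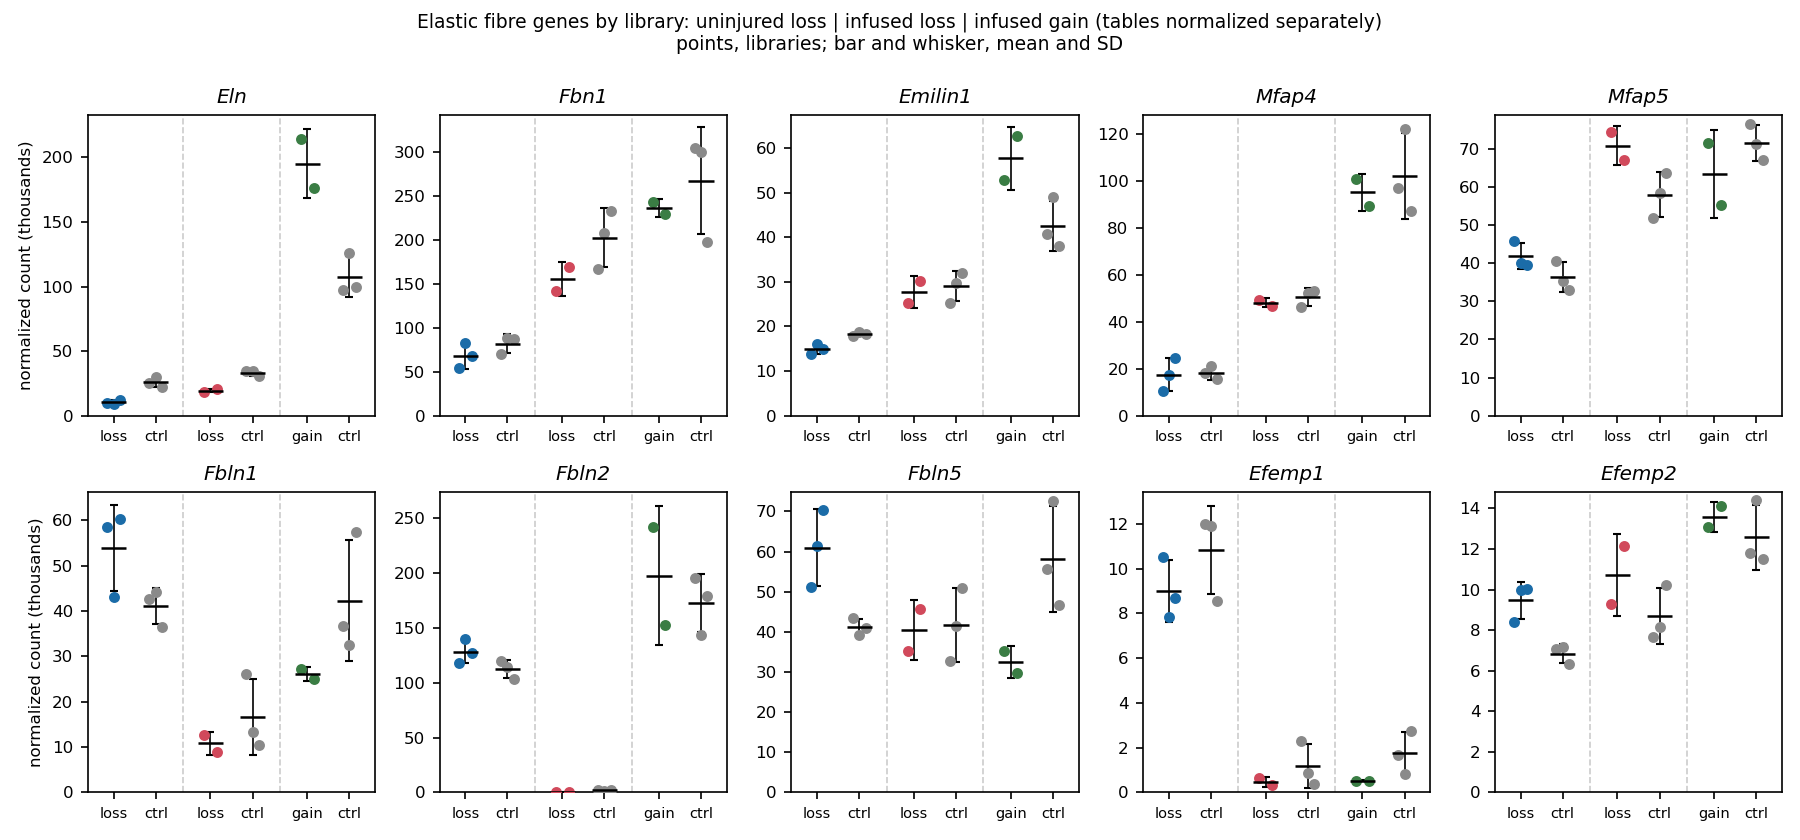
Normalized counts (in units of 1000, linear axis from 0) of the 10 elastic fibre genes in each of the 16 libraries, in 3 separately normalized tables, left to right uninjured loss, infused loss and infused gain, each left of its control; points are libraries, bars and whiskers mean and SD. Eln sits below its controls in both loss groups and above them in gain, and Fbln2 sits near 0 in both groups of the infused loss table.

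Elastin was lower in both Tcf21 loss groups and higher in the TCF21 gain group than in their controls. Its groups did not overlap in any of the 3 tables, and 1 of the 3 differences passed the test. Of all genes tested, 27.7% had no overlap in uninjured loss, 35.0% in infused loss and 39.3% in gain. Eln (ENSMUSG00000029675, chromosome 5, 134702593 to 134747323, minus strand, GRCm38) encodes tropoelastin, the extensible core of the fibre. In uninjured hearts it had 9613, 9021 and 12369 normalized counts in loss libraries, against 25104, 30097 and 22280.1 in controls. Every loss library lay below every control library, by a wide margin. The difference was 2.50-fold lower in loss (10334 ± 1787 against 25827 ± 3958, SD, n = 3 and 3; log2 fold change -1.32, 95% interval -1.64 to -1.004; limma adjusted p = 0.00294). It passed in 6 of 6 fits with 1 library left out, and missed the threshold when the variance trend was dropped (adjusted p = 0.0592; 0.00121 to 0.0592 over the 15 alternatives).

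Under infusion Eln had 18408 and 20471 normalized counts in loss libraries, against 34559, 34699.6 and 30602 in controls. Both loss libraries again lay below all 3 controls, at a fitted 1.71-fold lower level. The log2 fold change of -0.78 (SE 0.126, 95% interval -1.07 to -0.48) missed the threshold, at a limma adjusted p of 0.0529 with 2 and 3 libraries. Adjusted p ran from 0.00192 with a replicate block to 0.285 with control library 2 left out.

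In the gain arm Eln had 214039 and 176078 normalized counts in gain libraries, against 97609, 125709 and 99646 in controls. Both gain libraries lay above all 3 controls, at a fitted 1.82-fold. The log2 fold change was 0.86 (SE 0.192, 95% interval 0.41 to 1.31) and also missed the threshold (limma adjusted p = 0.0566; 0.0166 to 0.303 over the alternatives).

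The effects of gain and loss on Eln under infusion differed from each other. The gain effect minus the loss effect was 1.64 on the log2 scale (95% interval 1.14 to 2.13, limma adjusted p = 0.00503), and it passed in all 10 fits with 1 library left out, at 1.495 to 1.78. Over all genes, 2.93% of 14319 passed that contrast. Of the members, 2 of 10 did, Eln and Fbln2, and the Fbln2 value rests on the infused loss table. The loss effect on Eln with infusion minus that without was 0.55 (95% interval 0.092 to 1.00, adjusted p = 0.378), so a difference between the loss effects was not shown. In that contrast 0.149% of 14130 genes passed, and of the members only Fbln2 did.

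Smooth muscle cells and pericytes also express elastin, so the 16 mural markers were read beside it. Their summed normalized counts were 46558 to 51522 in uninjured loss libraries and 55334 to 59982 in controls, lower in loss as Eln was. Of the 16, 4 fell there, where 3.58% of all genes passed: Cspg4, Abcc9, Kcnj8 and Vtn. Under infusion the sums were 43452 to 54820 in loss libraries and 38912 to 43180.2 in controls, on the other side from Eln, but single genes differed. Acta2 averaged 11373 normalized counts in infused loss libraries and 5150.0 in controls, while Rgs5, Abcc9, Kcnj8, Vtn and Myh11 had negative fold changes. Of the 15 tested, 7 were positive and the median log2 fold change was -0.033. With limma 0 of them passed (3 at an unadjusted p below 0.05, beside 16.1% of all genes). In gain the sums were 43923 to 49843 in gain libraries and 51376 to 59496 in controls, with 6 of 15 positive and 1 risen, Des. Summed endothelial markers, most of them Tek, were lower without overlap in all 3 comparisons: 12357 to 13977 in uninjured loss libraries against 16141 to 16326 in controls, 2912 to 3379.7 in infused loss libraries against 3803 to 6876 in controls, and 5262 to 6648 in gain libraries against 8027 to 11120.5 in controls. Single endothelial genes did not all go with the sums: 1 of 7 tested was positive in uninjured loss, 5 of 9 in infused loss and 6 of 10 in gain. Their median log2 fold changes were -0.69, 0.048 and 0.26 in that order. Tek fell in gain and 0 endothelial markers passed in either loss comparison (5 of 7 and 1 of 9 at an unadjusted p below 0.05, beside 21.2% and 16.1% of all genes). In infused loss, summed erythroid and platelet markers were 183 to 504 in loss libraries against 71.1 to 78.6 in controls, with Hba-a1 risen, and summed myeloid markers 501 to 805 in loss libraries against 940.3 to 1036 in controls, with Cd74 fallen. In gain, erythroid and platelet sums were 201 to 283 against 72.4 to 134 in controls. Cardiomyocyte sums there were 983 to 1021 against 772 to 822 in controls. Myeloid sums in uninjured loss were 1580 to 2416 against 1395 to 1561 in controls. Valve and cartilage marker sums were 11599 to 18702 in uninjured loss libraries against 9257 to 11019.5 in controls. In infused loss they were 11403 to 12096 against 8627 to 10736, and in gain they overlapped their controls. The part of any of these markers in the Eln values was not tested. Summed fibroblast markers were lower in the gain libraries (3014980 to 3262920) than in their controls (4295990 to 4590370), while Eln was higher. Of these 8 markers 0 were past limma's adjusted threshold and 2 had an unadjusted p below 0.05, beside 20.4% of all genes.

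**Figure D2:**
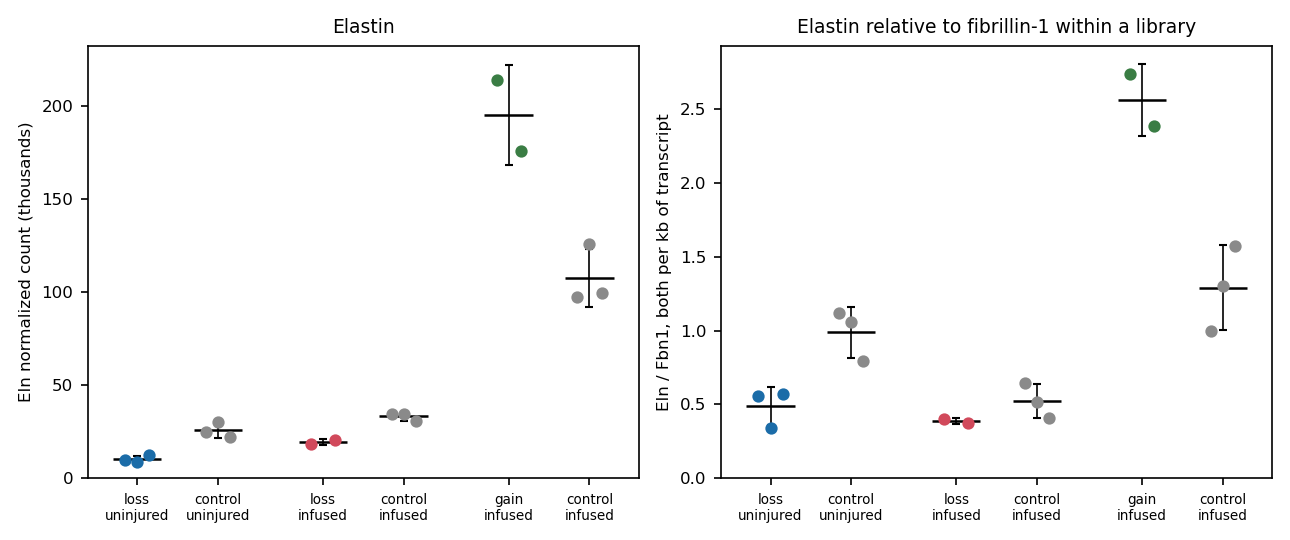
Left, Eln in normalized counts (in units of 1000) per library; right, Eln over Fbn1 within each library, both per kilobase of the longest coding transcript. Points are libraries and bars with whiskers mean and SD, with each loss or gain group left of its control; the ratio was 0.338 to 0.570 in uninjured loss libraries against 0.791 to 1.12 in controls, and 2.39 to 2.74 in gain libraries against 0.996 to 1.57 in controls.

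Set against fibrillin-1 in the same library, elastin moved in the same directions. This ratio was chosen after the values were seen, and the library's normalization factor drops out of it. Per kilobase, Eln over Fbn1 was 0.554, 0.338 and 0.570 in uninjured loss libraries, against 1.12, 1.05 and 0.791 in controls. The 3 loss libraries lay below the 3 controls. Under infusion it was 0.403 and 0.375 in loss libraries, against 0.643, 0.518 and 0.409 in controls, where the lowest control sits close to the higher loss library. In the gain arm it was 2.74 and 2.39 in gain libraries, against 0.996, 1.30 and 1.57 in controls. Per kilobase, elastin RNA exceeded fibrillin-1 RNA in both gain libraries and in 2 of their 3 controls.

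Fibrillin-1 (Fbn1), the structural protein of the microfibril, did not pass in any of the 3 comparisons. It had 53896, 82829 and 67468 normalized counts in uninjured loss libraries, against 69732, 88637 and 87518 in controls. Infused loss libraries had 141920.00 and 169539, against 167056, 208244 and 232664 in controls, and gain libraries had 243131 and 229031, against 304606, 299811 and 197039 in controls. The groups overlapped every time. Log2 fold changes were -0.28 (95% interval -0.65 to 0.082), -0.37 (-0.98 to 0.24) and -0.15 (-0.76 to 0.46) in the order uninjured loss, infused loss and gain, and the gain value turned positive under quantile normalization.

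Emilin1, a glycoprotein found between the elastin core and the microfibrils, lay on the same side of its controls as Eln in uninjured loss and in gain, without passing. Uninjured loss libraries had 13931, 16174 and 14839 normalized counts, against 17868, 18845 and 18308 in controls, a log2 fold change of -0.29 (SE 0.0778, limma adjusted p = 0.0735). Gain libraries had 52776 and 62748, against 40816, 48950.4 and 38167 in controls, a log2 fold change of 0.44 (SE 0.151, adjusted p = 0.164). In both, the groups did not overlap. Groups without overlap were common at these sample sizes, at 27.7% of genes in uninjured loss (4 of 10 members) and 39.3% in gain (5 of 10 members). In infused loss Emilin1 overlapped its controls, with 25232 and 30208 in loss libraries and 25361, 29811 and 32026 in controls, and the sign of its fold change of -0.067 turned under a replicate block.

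The microfibril-associated proteins Mfap4, which binds elastin and fibrillin microfibrils, and Mfap5 (also called MAGP-2), which binds fibrillin, passed in no comparison. Mfap4 varied widely among uninjured loss libraries, at 10403, 17273 and 24613 normalized counts, against 18039.9, 20923 and 15397 in controls. Its loss values spanned the whole range of the controls, and its 95% interval there ran from -0.73 to 0.47 on the log2 scale. It had 49441 and 46718 in infused loss libraries against 46163, 52115 and 53237 in controls, and 100714 and 89424 in gain libraries against 96848, 122254 and 87012 in controls, overlapping both times. Its fold changes in those tables were -0.069 and -0.090 on the log2 scale, and the gain value changed sign under quantile normalization.

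Mfap5 had 74596 and 67243 normalized counts in infused loss libraries, against 51950.5, 58436 and 63687 in controls. Both loss libraries lay above the 3 controls, 1 of 3 members without overlap in that table, where 35.0% of genes had none, and the log2 fold change of 0.29 did not pass (adjusted p = 0.425). In uninjured hearts Mfap5 had 45759.6, 40044 and 39687 in loss libraries against 40717, 35250.1 and 33059 in controls. In the gain arm it had 71579.9 and 55302 in gain libraries against 76659, 71285 and 67243 in controls. Groups overlapped in both.

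**Figure D3:**
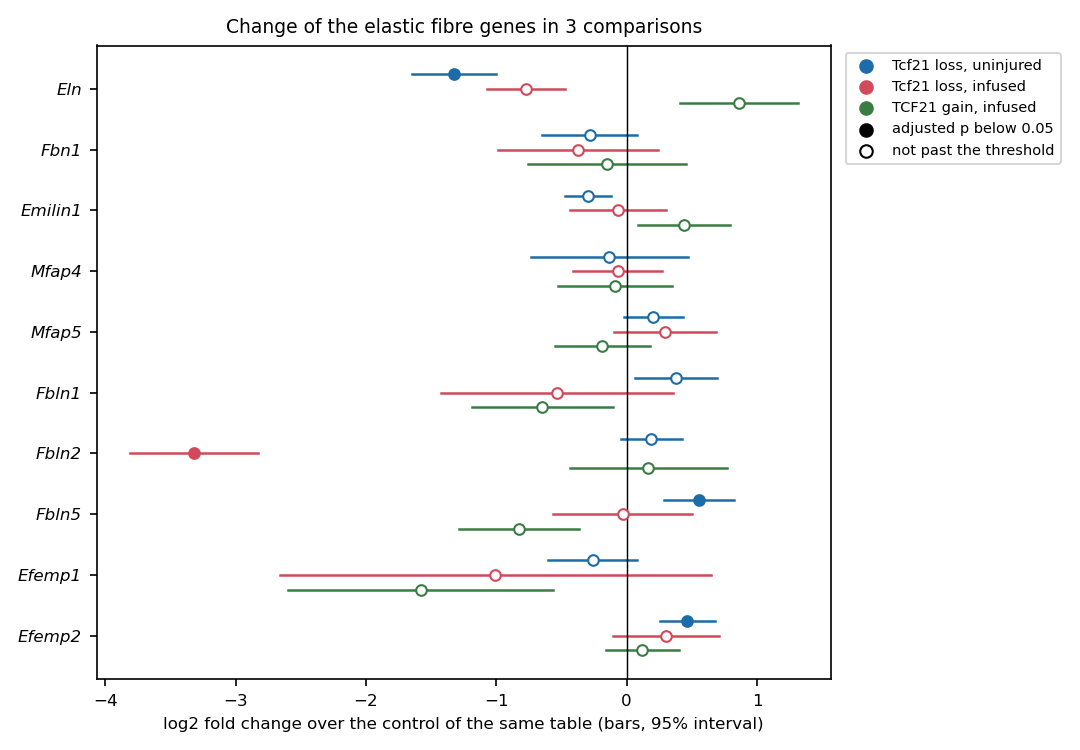
Log2 fold change over the control of the same table for each elastic fibre gene in uninjured loss, infused loss and infused gain (top to bottom within a gene), with 95% intervals from limma; filled points have an adjusted p below 0.05. Filled are Eln, Fbln5 and Efemp2 in uninjured loss and Fbln2 in infused loss, whose level there is unlike that of the other tables.

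Fibulin-5 (Fbln5), which binds tropoelastin, integrins and lysyl oxidase-like 1 and is needed for elastic fibre assembly in mice, lay on the other side of its controls from Eln in 2 of the 3 comparisons. It had 51131, 61403 and 70326 normalized counts in uninjured loss libraries, against 43399, 39113 and 40971 in controls. The 3 loss libraries lay above the 3 controls, and the rise was 1.47-fold (log2 fold change 0.56, SE 0.118, limma adjusted p = 0.0413). Leaving out 1 library ended that call in 5 of 6 fits, although the log2 fold change stayed between 0.45 and 0.68; the fit that kept it was without loss library 1.

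In gain libraries Fbln5 had 35273 and 29654 normalized counts, against 55579, 72602 and 46619 in controls. Both gain libraries lay below all 3 controls, with a log2 fold change of -0.83 (SE 0.196) that missed the threshold (limma adjusted p = 0.0661). In infused loss the groups overlapped, at 35196 and 45828 in loss libraries and 32649.5, 41369 and 51033 in controls (log2 fold change -0.030, 95% interval -0.56 to 0.50, with the sign turned under a replicate block). The gain effect minus the loss effect under infusion was -0.80 (95% interval -1.52 to -0.067, adjusted p = 0.261), short of the threshold.

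Fibulin-4 (Efemp2), which brings lysyl oxidase to tropoelastin and without which mice form no normal elastic fibres, rose with Fbln5 in uninjured loss. It had 8400.2, 9975 and 10012 normalized counts in loss libraries, against 7083, 7147 and 6309 in controls. The lowest loss library lay above the highest control, and the rise was 1.38-fold (log2 fold change 0.46, SE 0.0935, limma adjusted p = 0.0368). This call too ended in 5 of 6 such fits, at a log2 fold change of 0.41 to 0.55, and again the fit without loss library 1 kept it. Under quantile normalization neither Efemp2 nor Fbln5 passed, and 0 members rose and 2 fell in that table. Of 7 markers of adventitial fibroblasts, 2 rose in the same loss libraries, Pi16 and Clec3b, where 3.58% of all genes passed. Their summed normalized counts were 154662 to 173839 in loss libraries against 121704 to 143448 in controls, a difference about as large as that of Pi16 alone (mean 100244 in loss libraries and 67636 in controls). Only 3 of the 7 had a positive fold change, the median was -0.040 on the log2 scale, and Cd55 lay below its controls without passing (-0.26). The part of these markers in the 2 fibulin values was not tested.

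Under infusion Efemp2 overlapped its controls. It had 9303 and 12137 normalized counts in loss libraries against 7659, 8151 and 10247 in controls, and 13058 and 14106 in gain libraries against 11814, 14392 and 11492 in controls. Its log2 fold changes were 0.30 in infused loss and 0.12 in gain.

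Fibulin-3 (Efemp1), a short fibulin of the same build as fibulin-4, was one of the 2 lowest members per kilobase in both infused tables, and passed in no comparison. It had 531 and 506 normalized counts in gain libraries, against 1686, 809 and 2734 in controls. Both gain libraries lay below the controls, whose own values spread widely, and the log2 fold change of -1.58 (SE 0.433) missed the threshold (adjusted p = 0.0978). In infused loss it had 639.6 and 320.4 in loss libraries against 2281, 867 and 383 in controls, with overlap and a wide interval of -2.66 to 0.65 on the log2 scale. In uninjured hearts it had 10538, 7847 and 8672 in loss libraries against 12016, 11916 and 8576 in controls. Those groups overlapped as well.

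Fibulin-1 (Fbln1), a matrix and plasma glycoprotein that binds fibronectin, laminin and elastic fibres, had 58540.3, 43024 and 60213 normalized counts in uninjured loss libraries, against 42585, 44208 and 36558 in controls. Of the 3 loss libraries, 2 lay well above the controls and 1 among them (log2 fold change 0.38, adjusted p = 0.157). In gain libraries it had 27239 and 25042, against 36710.2, 32517 and 57459 in controls. Both gain libraries lay below the controls, at a log2 fold change of -0.65 that did not pass (adjusted p = 0.178). In infused loss, 12649.9 and 8914 in loss libraries overlapped 26163, 13234 and 10492 in controls, of which 1 stood well above the others.

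Fibulin-2 (Fbln2), which binds fibrillin and elastin and is made in the developing valves and vessel wall, needs its control levels first. Its control mean was 112573 normalized counts in the uninjured table and 173055 in the gain table, but 1912 in the infused loss table, a log2 distance of -6.19 from the mean of the other tables. A gene was counted as unlike in a table when its control mean lay over 8-fold from the others, themselves within 2-fold of each other. Over the 16135 genes listed in all 3 tables, 204 lay that way below and 6 above in the infused loss controls. In the uninjured controls 108 lay below and 12 above, and in the gain controls 2 and 0. So in the infused loss table Fbln2 is measured at a level unlike that of the other infused controls, and what was counted under the symbol there is not given in the sources used here.

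Within that table Fbln2 had 228 and 156 normalized counts in loss libraries, against 1938, 1579 and 2219 in controls. Every loss library lay far below every control, and Fbln2 fell 9.99-fold (log2 fold change -3.32, SE 0.205, limma adjusted p = 0.00124). It passed in 5 of 5 fits with 1 library left out. Of the 204 genes at such low levels, 181 were tested in that comparison. Of these, 1 rose and 1 fell, where 0.912% of all genes tested passed, and the 1 that fell is Fbln2. Their median log2 fold change was 0.056. The part of the low level in the Fbln2 fall was not tested. In the other tables Fbln2 showed no such fall: it had 118372, 139831 and 127375 in uninjured loss libraries against 119910.00, 114488 and 103319 in controls. It had 242252 and 152755 in gain libraries against 195794, 143983 and 179388 in controls. In both of these tables the groups overlapped, with log2 fold changes of 0.19 (95% interval -0.044 to 0.43) and 0.16 (-0.44 to 0.77).

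**Figure D4:**
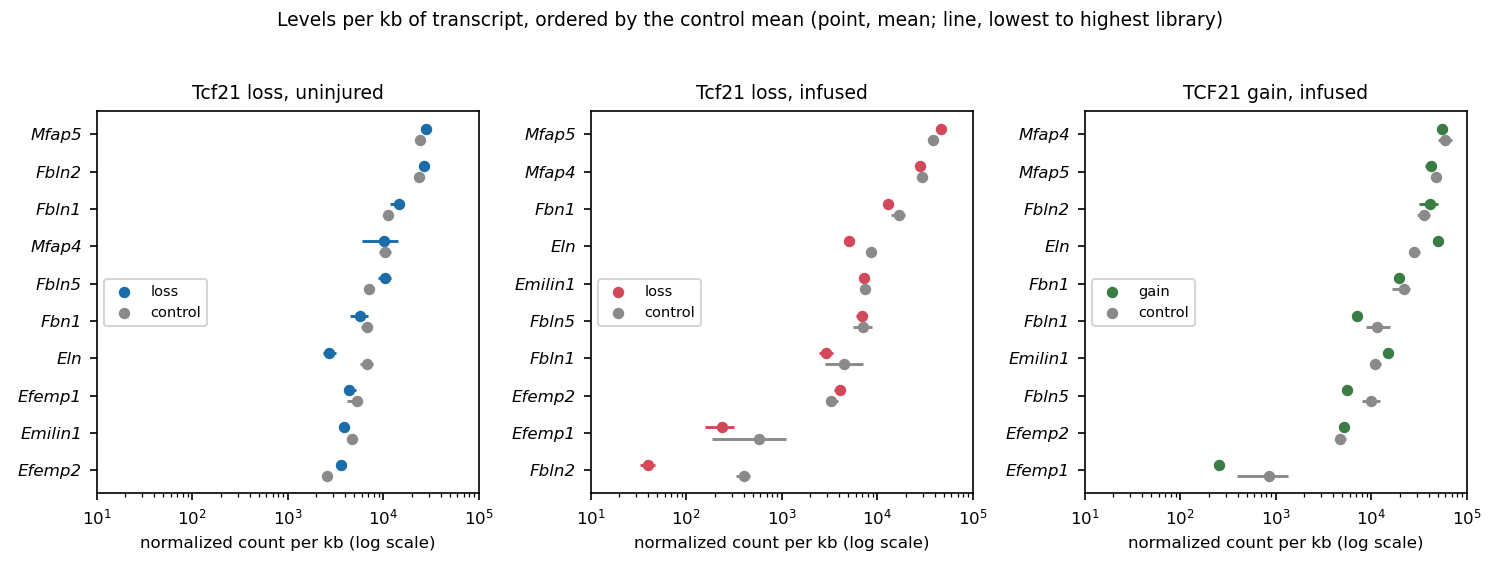
Normalized counts per kilobase of the longest coding transcript (log axis) for the 10 elastic fibre genes, ordered in each panel by the control mean, with the loss or gain group drawn above its control; points are means and lines run from the lowest to the highest library. Mfap5 or Mfap4 leads in each panel, and Efemp1 and Fbln2 sit far below the others in infused loss.

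Compared per kilobase of transcript, the members covered a wide range of levels. In uninjured loss libraries the order of mean levels was Mfap5 (27776 normalized counts per kb), Fbln2, Fbln1, Fbln5, Mfap4, Fbn1, Efemp1, Emilin1, Efemp2 and Eln (2682), against Mfap5 (24131), Fbln2, Fbln1, Mfap4, Fbln5, Fbn1, Eln (6703), Efemp1, Emilin1 and Efemp2 (2599) in controls. Eln was thus last in loss libraries and above 3 members in controls. In the loss libraries only the step from Fbln2 to Fbln1 separated neighbours beyond their ranges. In controls the steps after Fbln2, Mfap4 and Emilin1 did.

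In infused loss libraries the order per kb was Mfap5 (47091), Mfap4, Fbn1, Emilin1, Fbln5, Eln (5045), Efemp2, Fbln1, Efemp1 and Fbln2, and in controls Mfap5 (38529), Mfap4, Fbn1, Eln (8639), Emilin1, Fbln5, Fbln1, Efemp2, Efemp1 and Fbln2. In loss libraries only Emilin1 and Fbln5 overlapped as neighbours. In controls Eln to Efemp2 overlapped from one neighbour to the next, as did Efemp1 and Fbln2. In gain libraries the order was Mfap4 (55208), Eln (50625), Mfap5, Fbln2, Fbn1, Emilin1, Fbln1, Fbln5, Efemp2 and Efemp1 (255), and in controls Mfap4 (59256), Mfap5, Fbln2, Eln (27940.5), Fbn1, Fbln1, Emilin1, Fbln5, Efemp2 and Efemp1 (856). Eln stood second in gain libraries, within the range of its neighbours Mfap4 and Mfap5, and behind Mfap4, Mfap5 and Fbln2 in controls. Together the 10 genes took 0.986% to 2.63% of a library's normalized counts.

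Genes whose library-to-library pattern most resembled Eln were found by Pearson's r of log2(value + 1) minus the control mean of the same table, over the 16 libraries. Among 4501 genes with a control mean of at least 1000 in every table, the highest were C2cd2 (r = 0.975), Camkk1 (0.941), Rnf144a (0.933), Vangl1 (0.931) and Psme4 (0.927). The libraries share their tables and controls, so this is a description. Camkk1, the gene of a calcium/calmodulin-dependent kinase kinase, averaged 1078 normalized counts in uninjured loss libraries and 1766 in controls, and 1854 in gain libraries and 1581 in controls. Psme4, the gene of a proteasome activator, averaged 717 in uninjured loss libraries and 1282 in controls, and 2151 in gain libraries and 1374 in controls. The Camkk1 difference in gain did not pass (limma adjusted p = 0.289), nor did the infused loss differences of Camkk1 (735 in loss libraries and 1037 in controls, adjusted p = 0.136) and Psme4 (799 in loss libraries and 1191 in controls, adjusted p = 0.201). Among the members, Emilin1 was the most like Eln (r = 0.80, rank 126), followed by Fbn1 (0.38), Fbln2 (0.26) and Mfap4 (0.25). The r to Eln was negative for Efemp1 (-0.18, a weak value), Fbln1 (-0.39), Efemp2 (-0.59), Mfap5 (-0.70) and Fbln5 (-0.73).

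The enzymes that cross-link elastin did not pass in any comparison. Of Lox, Loxl1, Loxl2, Loxl3 and Loxl4, 0 of 5 had a limma adjusted p below 0.05 in uninjured loss, infused loss or gain, and 2, 0 and 0 of them had an unadjusted p below 0.05, beside 21.2%, 16.1% and 20.4% of all genes. Lox had 54928 and 87912 normalized counts in infused loss libraries against 34552 to 82857 in controls, and 62434 and 65299 in gain libraries against 49081 to 88319 in controls. The Lox control values spanned those of the loss and gain libraries for the most part, so only a large change of Lox could have been seen. In uninjured loss the 2 with an unadjusted p below 0.05 were Loxl1 and Loxl3, both higher. Their log2 fold changes were 0.26 and 0.24 (limma adjusted p = 0.110 and 0.144).

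Relatives of the fibrillins and fibulins changed singly. Of 13 tested in uninjured loss, 1 rose and 0 fell: Fbln7, a fibulin known for cell adhesion, had 983, 1016 and 1753 normalized counts in loss libraries against 479, 471 and 406 in controls. It rose 2.67-fold (limma adjusted p = 0.0141), and 3 of 6 fits with 1 library left out did not call it. In infused loss 0 of 15 passed with limma, and 4 had an unadjusted p below 0.05, beside 16.1% of all genes. In gain 1 of 15 rose and 1 fell. Fbn2, the fibrillin of developing tissue, had 8145 and 8422 in gain libraries against 5087, 6082 and 4249 in controls (1.63-fold, adjusted p = 0.0443). Ltbp1, which tethers latent TGF-beta to microfibrils, fell 1.52-fold in gain (adjusted p = 0.0455). It was lower in infused loss too, without passing (log2 fold change -0.52, limma adjusted p = 0.0886). In uninjured loss its log2 fold change was 0.027. The fits with 1 library left out lost the Fbn2 call in 3 of 5 cases and the Ltbp1 call in 4 of 5. Mfap2, another microfibril protein (MAGP-1), averaged 14.96 normalized counts in infused loss libraries and 5.91 in controls, below the filter, and was not tested there. Its control means in the other tables were 3296 or more.

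Among the microfibril-binding ADAMTS-like proteins, 1 gene fell in infused loss and rose in gain, the directions in which Eln lay. Adamtsl2, which binds fibrillin-1 and latent TGF-beta binding protein 1 and is mutated in human geleophysic dysplasia, had 5434 and 4737 normalized counts in infused loss libraries against 11075, 10298 and 10615 in controls. It had 77781 and 57679 in gain libraries against 22983, 27228 and 26178 in controls. Groups were far apart in both: Adamtsl2 fell 2.10-fold in loss (limma adjusted p = 0.00659, not called in 2 of 5 fits with 1 library left out) and rose 2.64-fold in gain (adjusted p = 0.00760, kept in 5 of 5 such fits but lost without the variance trend, where it was 0.0670; 0.00189 to 0.0670 over the 14 alternatives). The gain effect minus the loss effect was 2.47 on the log2 scale (95% interval 2.04 to 2.90, adjusted p = 0.000199), past the threshold in all 10 fits with 1 library left out. In uninjured loss libraries it had 7946, 10163 and 10899, against 11766, 13416 and 11279 in controls, and did not pass (log2 fold change -0.34, adjusted p = 0.159).

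Of the 8 tested members of that list, 0 passed with limma in uninjured loss (3 at an unadjusted p below 0.05, beside 21.2% of all genes). In infused loss 1 fell, where 0.912% of all genes passed, and in gain 2 rose and 2 fell, where 4.14% did. Besides Adamtsl2, Thsd4 (also known as Adamtsl6, which binds fibrillin-1) rose 2.60-fold in gain, at 300.02 ± 59.8 normalized counts in gain libraries and 114 ± 8.71 in controls. Adamtsl3 fell 2.64-fold and Adamtsl4 fell 1.68-fold (adjusted p = 0.0186 for Thsd4, 0.0115 for Adamtsl3 and 0.0284 for Adamtsl4). Leaving out 1 library ended each of these 3 calls in 2 or 3 of 5 fits.

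**Figure D5:**
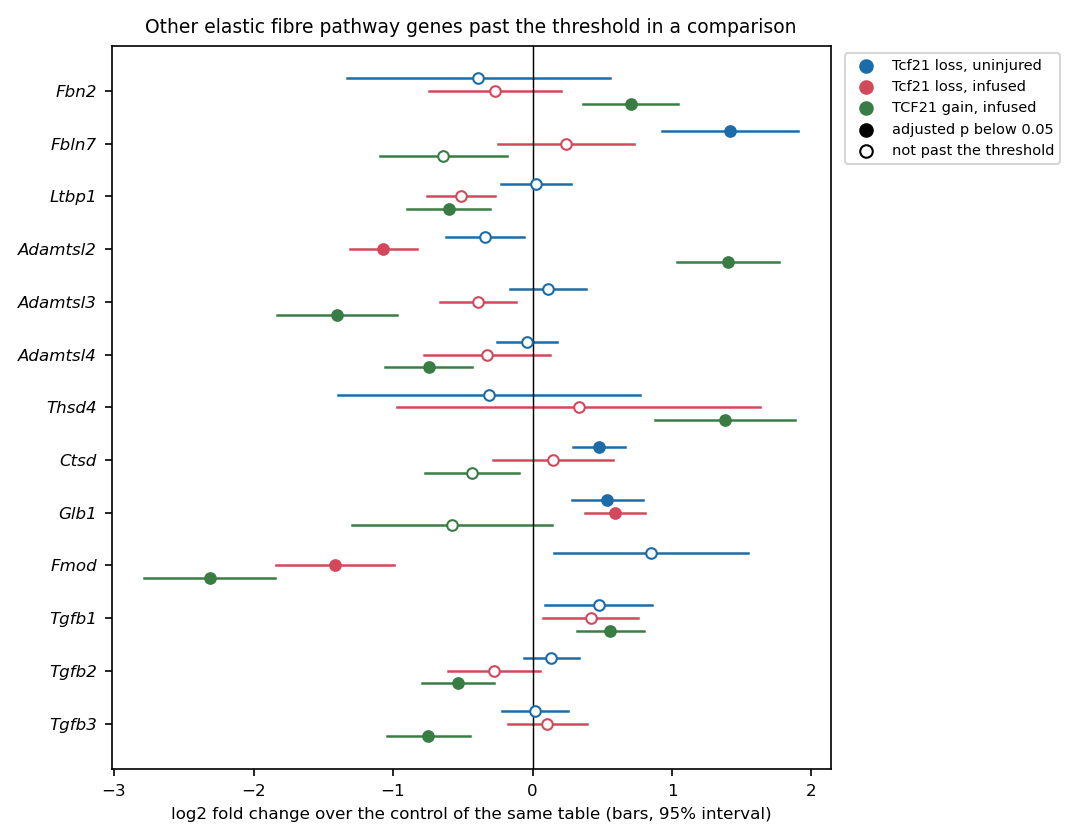
Log2 fold change over the control of the same table, with limma 95% intervals, for the other elastic fibre pathway genes that passed in at least 1 comparison; uninjured loss, infused loss and infused gain run top to bottom within a gene, and filled points have an adjusted p below 0.05. Adamtsl2 fell in infused loss and rose in gain, and Fmod fell in both.

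The proteoglycans of elastic fibres and the growth factors held at microfibrils also included changes. Fibromodulin (Fmod), a collagen-binding proteoglycan, fell 2.66-fold in infused loss (14535 and 13433 normalized counts in loss libraries against 30836, 36817 and 45490.5 in controls, limma adjusted p = 0.0236). It fell 4.98-fold in gain (11532 and 10952 in gain libraries against 52307, 74084 and 45181 in controls, adjusted p = 0.00446), a call lost without the variance trend (0.000210 to 0.0623 over the 14 alternatives). Fmod thus fell in both, whereas Eln lay below its controls in loss and above them in gain. In uninjured loss Fmod had 6494, 3326 and 8296 in loss libraries against 2373, 3362 and 3859 in controls, on the other side and with overlap, and did not pass (log2 fold change 0.85, adjusted p = 0.157). Leaving out 1 library ended the infused loss call in 3 of 5 fits. Of the 5 proteoglycans tested (Bgn, Dcn, Fmod, Vcan and Hspg2), 0 passed with limma in uninjured loss. There 2 had an unadjusted p below 0.05, beside 21.2% of all genes. In each infused comparison 1 of them fell, where 0.912% of all genes passed in loss and 4.14% in gain. Of 8 growth factors and their processing enzymes tested in gain, Tgfb1 rose 1.47-fold, Tgfb2 fell 1.45-fold and Tgfb3 fell 1.68-fold, where 4.14% of all genes passed. Leaving out 1 library ended each of those 3 calls in 3 or 4 of 5 fits. With limma 0 of 8 passed in uninjured loss and 0 of 7 in infused loss (2 and 2 at an unadjusted p below 0.05, beside 21.2% and 16.1% of all genes).

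Few enzymes that degrade elastin and few receptors of the fibre passed the test. Of 7 proteases tested in uninjured loss 1 rose, Ctsd (the lysosomal protease cathepsin D, 1.39-fold, limma adjusted p = 0.0239), and of 9 tested in each infused comparison 0 passed, with 1 in loss and 4 in gain at an unadjusted p below 0.05, beside 16.1% and 20.4% of all genes. In the gain minus loss contrast Ctsk (cathepsin K, which degrades elastin and collagen; chosen after its values were seen) was lower at -0.72 on the log2 scale (adjusted p = 0.0313), and leaving out 1 library ended that call in 8 of 10 fits. Of 13 receptor genes tested, 1 rose in each loss comparison and 0 passed in gain, where 6 had an unadjusted p below 0.05, beside 20.4% of all genes. The gene that rose both times was Glb1, whose locus encodes lysosomal beta-galactosidase and, by splicing, the elastin-binding protein. Glb1 had 3263, 3156 and 3186 normalized counts in uninjured loss libraries against 2045, 1988 and 2637 in controls, and 2867 and 3087 in infused loss libraries against 1993, 2055 and 1877 in controls. It was 1.45-fold higher without and 1.51-fold higher with infusion (adjusted p = 0.0412 and 0.0457), and leaving out 1 library ended the call in 5 of 6 and 5 of 5 fits. The counts do not separate its splice forms.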

How the data were processed

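RNA of sorted cardiac fibroblasts was taken with a MiRNeasy micro kit and amplified with SMART-seq V4, per the labels' protocols. The submitters' processing notes name kallisto, DESeq2 and GRCm38; neither versions nor the annotation are stated in the sources used here. What the authors deposited is a normalized signal: estimated counts, scaled separately in each of 3 tables, so tests stay within a table, and levels set across tables (for Fbln2, Mfap2 and genes at unlike levels) are descriptions. Whole reads were recovered only in part (31.3% to 67.5% of low values lay within 0.03 of a whole step), so no count model was fitted and depth in reads is unknown.

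Genes with a table mean of at least 10 were tested on log2(value + 1), a scale that understates the change of low genes, with limma 3.58.1 in R 4.3.3 (lmFit and trended eBayes, two-sided; threshold a Benjamini-Hochberg adjusted p of 0.05 over all genes), using only the groups of a comparison. The 2 contrasts between comparisons were fitted on group means. The tests were checked on simulated data. Positions and lengths per kilobase (longest coding transcript) come from GENCODE vM21.

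Members, lists and tests were chosen with earlier results of these data known. Named were the members, Tcf21, list genes past the threshold in a comparison (at most 4 per list and comparison) and the 5 genes most like Eln. No label says that replicate numbers pair the samples, so no block was used in the main tests.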

Additional observations from a re-analysis of the deposited data

Results flagged for a closer look

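The fitted effect of Tcf21 loss on Fbln2 differed between the infused and the uninjured table. The infused effect minus the uninjured effect was -3.51 on the log2 scale (95% interval -4.01 to -3.01, limma adjusted p = 0.000103). It ran from -3.78 to -3.24 over the 11 fits with 1 library left out. Loss libraries averaged 192 ± 50.3 normalized counts under infusion against 1912 ± 321 in controls (SD, n = 2 and 3), and 128526 ± 10776 in uninjured hearts against 112573 ± 8460 in controls (SD, n = 3 and 3). The infused loss table holds Fbln2 at a level unlike the gain table, whose infused controls averaged 173055. Infusion and table go together in this contrast and cannot be told apart. The part of that level in the difference was not tested.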

How the results depend on the processing

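Over 1398 pairs of a named gene and an alternative setting, 1202 kept their direction and their side of the threshold, 133 lost the call, 27 gained one and 36 changed sign. In uninjured loss, where 2 members rose and 1 fell, 0 rose with quantile normalization, without the variance trend or with a replicate block; 2 fell with quantile normalization and 0 without the trend. With 1 library left out, 0 to 2 rose. In infused loss (0 rose, 1 fell), 2 fell with no filter, with quantile normalization or with library weights, and 4 fell and 1 rose with the block. Without the genes at unlike levels 0 fell, because that setting removes Fbln2 itself, so it cannot test the Fbln2 call. In gain (0 and 0), 1 rose with no filter, with quantile normalization and with weights, 1 fell with weights, and 2 rose and 3 fell with the block; with 1 library left out 0 to 1 rose and 0 to 1 fell. For the infused minus uninjured loss contrast (1 lower), 2 were lower with the block and 0 without unlike genes. For gain minus loss (2 higher), 1 was higher without unlike genes and 1 lower with the block. In both contrasts the setting without unlike genes again leaves Fbln2 out of the fit, so its call is not tested there. No label says that the replicate numbers pair libraries. Deviations of same-numbered libraries correlated at -0.054 to 0.025 in uninjured loss, at 0.18 and -0.042 in infused loss and 0.095 and 0.062 in gain. Against differently numbered controls, the highest were -0.0018 to 0.078 in uninjured loss, 0.042 and 0.23 in infused loss and -0.033 and 0.033 in gain. With only 2 pairs in each infused table, these values cannot decide whether the numbers pair libraries. The block moved the count of all genes called to 227 from 557 in uninjured loss, to 1462 from 135 in infused loss and to 1842 from 637 in gain. Over all settings that count ran from 88 (uninjured control library 3 left out) to 949 (weights) in uninjured loss, from 32 (loss library 2 left out) to 1462 in infused loss and from 25 (no trend) to 1842 in gain. It ran from 12 to 79, beside 21, in the infused minus uninjured contrast, and from 155 to 901, beside 420, in gain minus loss.

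No called value changed sign. Signs of values that had not passed turned with the block for Fbln5 (0.13) and Emilin1 (0.0059) in infused loss, Fbn1 (0.016) in the infused minus uninjured contrast, and Fbn1 (-0.091), Fbln1 (0.41) and Efemp1 (0.46) in gain minus loss. They turned with quantile normalization for Fbn1 (0.12) and Mfap4 (0.0091) in gain, Fbn1 (0.0013) in the infused minus uninjured contrast, and Fbln1 (0.040) and Mfap4 (0.13) in gain minus loss; with weights, Mfap4 (-0.011) in the infused minus uninjured contrast. With 1 library left out, ranges crossing 0 were Mfap4 in uninjured loss (-0.42 to 0.20), Fbln5 (-0.22 to 0.16) and Emilin1 (-0.20 to 0.062) in infused loss, Fbln2 (-0.17 to 0.50) and Mfap4 (-0.20 to 0.048) in gain, Fbn1 (-0.25 to 0.062), Efemp2 (-0.35 to 0.030) and Mfap4 (-0.27 to 0.35) in infused minus uninjured loss, and Fbln1 (-0.50 to 0.16), Efemp1 (-1.23 to 0.054), Efemp2 (-0.38 to 0.0079) and Mfap4 (-0.13 to 0.12) in gain minus loss. The causes were not tested. With 2 libraries in each infused loss and gain group, a fit without 1 of them assumes that the lone library varies like the other group.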
